A study of Mus musculus with 36 samples.

Results

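The Notch ligand, receptor and Fringe genes read in these cultures were Jag1, Jag2, Dll1, Dll4, Notch1, Notch2, Notch3, Lfng, Mfng and Rfng, 10 genes of the 30125 that at least 1 of the deposited tables lists. They were taken by name, as the rows whose Ensembl identifier maps to one of these symbols. No cut-off on a measured value was applied, but the list was written with earlier results of these data known. The material was RNA-seq of 36 libraries of mouse nephron progenitor cells (NPCs), the mesenchymal cells of the embryonic kidney that either renew or turn into nephrons. They were enriched from kidneys of Swiss Webster or C57Bl/6 embryos by removing other cell types and cultured in NPEM medium. By the study's methods all embryos were of the same stage. CHIR, an inhibitor of the kinase GSK-3β that stabilizes β-catenin and so stands in for a Wnt signal, was absent (0 µM), low (1.25 µM) or high (5 µM).

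Wild-type cells were read at 0 µM, low and high CHIR, with 3 libraries each. In a 16-library β-catenin table, cells with the genotype B-catenin_c_c (floxed Ctnnb1 alleles) came without (Cre-neg) or with (Cre-pos) transfected Cre mRNA, and Cas9-eGFP cells came with a control guide against GFP or with guides against Ctnnb1, each in low and high CHIR with 2 libraries. In an 11-library Tcf/Lef table, Cas9-eGFP cells carried a GFP guide or guides against Tcf7, Tcf7l1, Tcf7l2 and Lef1 together, with 3 libraries per group except the knockout in low CHIR, which had 2. The Cas9 controls thus share Cas9 and eGFP with their knockouts, but only the controls received the guide against GFP. Transfected cells were sorted for co-transfected mCherry, so each library is a mixed pool of edited cells and not a clone, and the Tcf/Lef set was given a longer knockout period than the β-catenin set. Each table had been normalized on its own, so levels are compared within a table only.

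In Notch signalling a ligand on one cell (the Jagged and Delta-like proteins) binds a Notch receptor on a neighbour. The receptor is then cut, first by an ADAM protease and then by γ-secretase, and the freed intracellular part joins Rbpj and a Mastermind coactivator to switch on genes such as Hes1, Hey1 and Heyl. Fringe enzymes add a sugar to O-fucose on the receptor and change how well it answers Jagged against Delta-like ligands. In the forming nephron the pathway acts once progenitors have left the renewing state, Notch2 is the receptor that nephron formation mostly needs, and Jag1 appears in the renal vesicle.

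In GRCm38, with GENCODE vM21 gene bounds, the ligand genes lie at chr2:137081456-137116644 (Jag1, minus strand), chr12:112907819-112929776 (Jag2, minus), chr17:15367354-15376872 (Dll1, minus) and chr2:119325784-119335962 (Dll4, plus). The receptor genes lie at chr2:26457903-26516663 (Notch1, minus), chr3:98013527-98150361 (Notch2, plus) and chr17:32120820-32166852 (Notch3, minus). The Fringe genes lie at chr5:140607320-140615545 (Lfng, plus), chr15:78755882-78773475 (Mfng, minus) and chr11:120780746-120784207 (Rfng, minus).

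The sequences just before the start sites of Jag1, Dll1, Notch2 and Lfng are shown because these members made up most of the transcripts or moved most with CHIR or with an edit. A RefSeq promoter window on GRCm38.p6 was found for 9 of the 10 members (not for Mfng). Letters were searched on both strands for TCAAAG, the core of the motif that Tcf/Lef factors bind, and for TGGGAA, the core of the Rbpj motif, which do not overlap each other. Each line gives the bases upstream of the start site on the gene's own strand, 5′ to 3′, without the bases that GENCODE already counts as transcribed. Capitals mark a match.
Jag1, chr2:137116645-137116770, minus strand: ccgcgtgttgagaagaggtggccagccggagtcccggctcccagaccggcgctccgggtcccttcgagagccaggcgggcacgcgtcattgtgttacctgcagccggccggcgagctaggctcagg
Dll1, chr17:15376933-15377182, minus strand: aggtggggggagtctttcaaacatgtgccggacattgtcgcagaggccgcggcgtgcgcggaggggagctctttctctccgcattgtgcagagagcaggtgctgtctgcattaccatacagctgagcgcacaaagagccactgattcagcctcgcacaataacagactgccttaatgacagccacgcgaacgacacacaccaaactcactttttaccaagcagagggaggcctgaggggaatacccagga
Notch2, chr3:98013288-98013526, plus strand: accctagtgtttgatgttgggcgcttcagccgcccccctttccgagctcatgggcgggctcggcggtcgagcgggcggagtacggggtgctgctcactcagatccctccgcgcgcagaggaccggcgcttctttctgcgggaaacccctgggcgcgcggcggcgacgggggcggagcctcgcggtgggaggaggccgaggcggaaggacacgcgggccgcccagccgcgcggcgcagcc
Lfng, chr5:140607091-140607319, plus strand: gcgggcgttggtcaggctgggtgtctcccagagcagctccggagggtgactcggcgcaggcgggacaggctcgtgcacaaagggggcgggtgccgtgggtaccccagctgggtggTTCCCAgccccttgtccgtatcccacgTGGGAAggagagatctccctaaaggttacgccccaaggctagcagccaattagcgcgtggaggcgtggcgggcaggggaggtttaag

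The 2 stretches in capitals in Lfng are its TGGGAA matches, 1 on each strand, 108 and 135 bases before the RefSeq start. Among the members' windows of 300 bases (250 before and 50 after the start) the TCAAAG core occurred once, 24 bases after the start of Jag1 and so outside the printed stretch. Of 32851 RefSeq promoter windows of that length, 16% held TCAAAG and 25.6% held TGGGAA. These are matches of letters and not measured binding sites, and a window without a match says nothing of binding elsewhere.

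The libraries held 13089780 to 76071568 reads on genes. The label of the cells was borne out by the NPC markers: the summed normalized count of 7 uninduced progenitor markers (Six2, Cited1, Eya1 and others) was 10134 to 16014 in wild-type low CHIR and 306 to 405 in high CHIR, and that of 6 induced markers (Wnt4, Lef1, Lhx1 and others) was 3316 to 7078 against 23654 to 25002. Ctnnb1 itself was 1040 to 1652 with Ctnnb1 guides against 2521 to 3397 with GFP guides in low CHIR, and 1270 to 1630 against 2632 to 2701 in high CHIR. With Cre in low CHIR it was 2451 to 3085, below the 3097 to 3880 of the no-Cre cells. With Cre in high CHIR it was 2254 to 2583, overlapping the 2207 to 2423 of the no-Cre cells. By immunostaining, the paper reports reduced β-catenin protein after both Cre and Ctnnb1 guides. The tables count whole genes, so reads of exons outside the deleted part still count. In the Tcf/Lef set in high CHIR, Lef1 was 255 to 513 in the knockout against 1144 to 2743 and Tcf7 110 to 180 against 268 to 535. Tcf7l1 (539 to 736 against 486 to 612) and Tcf7l2 (999 to 1616 against 1263 to 2233) overlapped there. In low CHIR, Tcf7l1 (827 to 1286 against 1736 to 2225) and Tcf7 (66.2 to 97.7 against 141 to 220) were lower in the knockout without overlap. Tcf7l2 and Lef1 overlapped in low CHIR. By immunostaining, the paper reports that individual guides removed most of the Tcf7l1, Tcf7l2 and Lef1 protein and less of the Tcf7 protein. Each guide was used at a lower amount when all were combined.

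Stromal markers were present throughout (7 of 7 detected, summed count 1050 to 28682), which matters here because stromal and vascular cells also carry Notch genes. By median, Col1a1, Col3a1 and Meis1 were the largest parts of that sum in each table, while Foxd1 was at 46.0 or below in every library. In wild-type cells the summed count of 8 endothelial markers was 995 to 1817 in high CHIR and 317 to 374 in low CHIR. This gap lay in Tek and Flt1, since Cdh5 was at 6.72 or below in high CHIR and Tie1 was at 0 in every high-CHIR library, while Egfl7 was 342 to 439 against 286 to 323. Ureteric markers summed to 1407 to 2240 in wild-type high CHIR and 775 to 1032 in low CHIR, and podocyte markers to 343 to 532 against 119 to 161. Blood markers summed to 226 to 333 against 703 to 875. In bulk samples, fewer cells of a type and less RNA per cell cannot be told apart.

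The make-up of the members was lopsided. Per kilobase of exon, Notch2 made up 83.7% to 96.4% of the receptor transcripts in the mean of every group, and Jag1 69.1% to 99.4% of the ligand transcripts. By group mean Dll1 was the second ligand in every group but the Cre-treated cells in high CHIR, where Jag2 made up 0.847% and Dll1 0.578%. Dll1 had 22.9% ± 3.79 (SD, n = 3) of the ligand transcripts in wild-type low CHIR and 2.17% ± 1.35 (SD, n = 3) in high CHIR. The Fringe transcripts were shared by Lfng and Rfng. Dll4 and Mfng were barely read: Dll4 had 18 reads over the 9 wild-type libraries and 16 over the β-catenin table, is not in the Tcf/Lef table, and Mfng had 21, 45 and 23 reads in the wild-type, β-catenin and Tcf/Lef tables. Both fell under the mean normalized count of 10 required for a test, which leaves 8 members tested in each table.

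**Figure D1:**
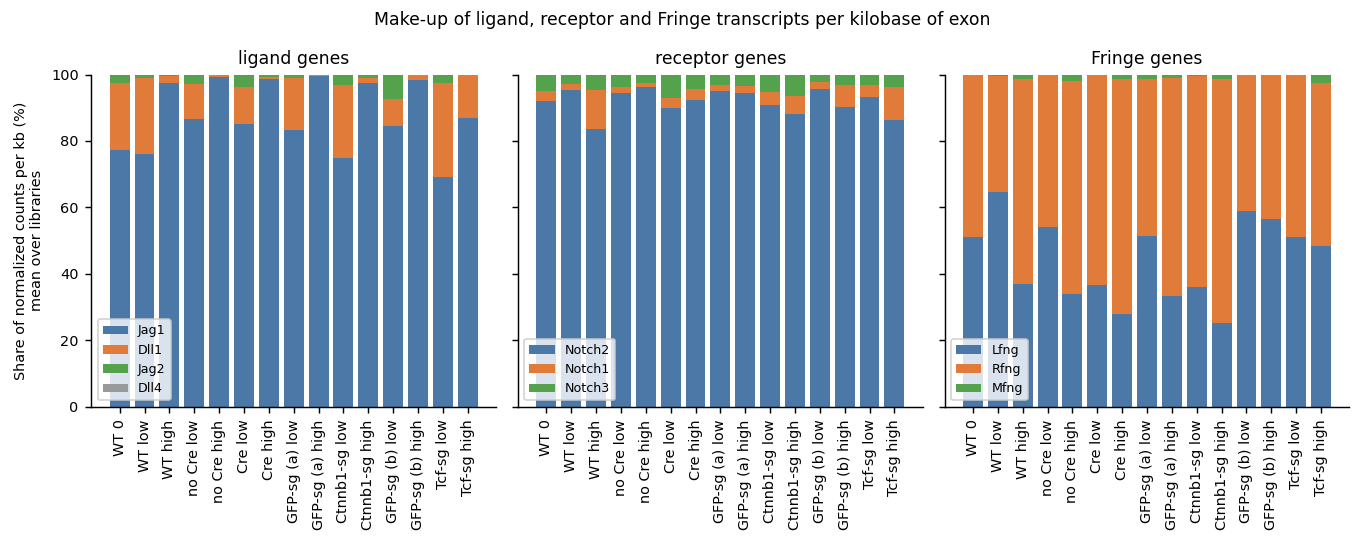
Share of each gene in the normalized counts per kilobase of exon of the ligand, receptor and Fringe genes (vertical axis, %, mean over the libraries of a group) for the 15 groups (horizontal axis); GFP-sg (a) is the GFP-guide control of the β-catenin table and GFP-sg (b) that of the Tcf/Lef table. Jag1 and Notch2 fill most of every ligand and receptor bar, and the share of Dll1 shrank from 22.9% in wild-type low CHIR to 2.17% in high CHIR.

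The wild-type cells show what the dose of CHIR did to these genes. Going from low to high CHIR, 5 of the 8 tested members changed: Jag1 and Notch1 rose, and Notch2, Dll1 and Lfng fell. Of all 17411 genes tested in that comparison 10.4% passed the same test (limma on log2(normalized count + 1), Benjamini-Hochberg adjusted p below 0.05 and a change of at least 0.5 on the log2 scale). The median log2 change of the 8 members was -0.33, against 0.01 over all genes.

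Jag1, the Jagged ligand of the renal vesicle, had normalized counts of 1053, 527 and 414 at 0 µM, 2092, 1687 and 996 in low CHIR, and 11451, 13731 and 3710 in high CHIR. The high-CHIR libraries all lay above the others, with replicate 3 lowest among them. The rise from low to high was 2.46 ± 0.50 on the log2 scale (SE, a 5.49-fold change, limma adjusted p = 0.0109) and that from 0 µM to high 3.77 ± 0.50 (adjusted p = 0.000554). The step between 0 µM and low CHIR was not called (0 µM minus low, -1.31 ± 0.50, adjusted p = 0.158), and the 2 doses overlapped in 1 library each (1053 and 996).

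Dll1, the Delta-like ligand, peaked at the low dose: it was 181, 82.0 and 99.4 at 0 µM, 377, 461 and 206 in low CHIR, and 111, 149 and 105 in high CHIR. All low-CHIR libraries lay above all others. Dll1 was lower at 0 µM than in low CHIR by 1.53 ± 0.36 (fell by 1.53 on the log2 scale, limma adjusted p = 0.0422) and high CHIR brought it back down from the low-dose level (log2 change -1.45 ± 0.36, adjusted p = 0.0298), while high CHIR against 0 µM gave no call (0.08 ± 0.36, adjusted p = 0.904). Jag2, the other Jagged ligand, had 18.0 to 26.3 in low and 31.4 to 43.3 in high CHIR, and its difference was not called (0.60 ± 0.42, adjusted p = 0.429).

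Among the receptors Notch2 and Notch1 moved in opposite directions. Notch2 was 4093, 2228 and 3460 at 0 µM, 5188, 3977 and 5551 in low CHIR and 1841, 1770 and 1499 in high CHIR, so the high-CHIR libraries were the lowest. Its log2 change from low to high was -1.52 ± 0.22 (limma adjusted p = 0.00181) and from 0 µM to high -0.90 ± 0.22 (adjusted p = 0.0143). Notch1 was 192, 123 and 127 at 0 µM, 151, 116 and 126 in low CHIR and 389, 322 and 236 in high CHIR. It rose by 1.24 ± 0.26 against low CHIR (adjusted p = 0.012) and by 1.09 ± 0.26 against 0 µM (adjusted p = 0.012). Per kilobase, the Notch1 share of the receptor transcripts went from 1.95% ± 0.26 to 11.6% ± 1.12 (SD, n = 3 each). Notch1 is also an endothelial receptor, and the part of the endothelial marker sum given above in its rise was not tested.

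Notch3, a receptor of mural and stromal cells, ranged from 26.2 to 138 in high CHIR and from 97.0 to 108 in low CHIR, and no wild-type comparison called it. The 138 was in high-CHIR replicate 1, whose stromal marker sum (11307) was also the highest of the 3 high-CHIR libraries (3811 and 5924 in the others). The 26.2 was in replicate 3, whose sum of 5924 was above the 3811 of replicate 2. In low CHIR the stromal sum was 11082 to 16542, and its part in the Notch3 values was not tested. Of the Fringe genes, Lfng was 154, 158 and 173 at 0 µM, 183, 253 and 449 in low CHIR and 114, 69.8 and 93.5 in high CHIR, with no overlap between the doses. Its log2 change from low to high CHIR was -1.59 ± 0.32 (limma adjusted p = 0.0106), that from 0 µM to high -0.82 ± 0.32 (adjusted p = 0.0882). Rfng overlapped between the doses, with 113 to 177 in low and 112 to 202 in high CHIR (0.07 ± 0.28, adjusted p = 0.915).

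**Figure D2:**
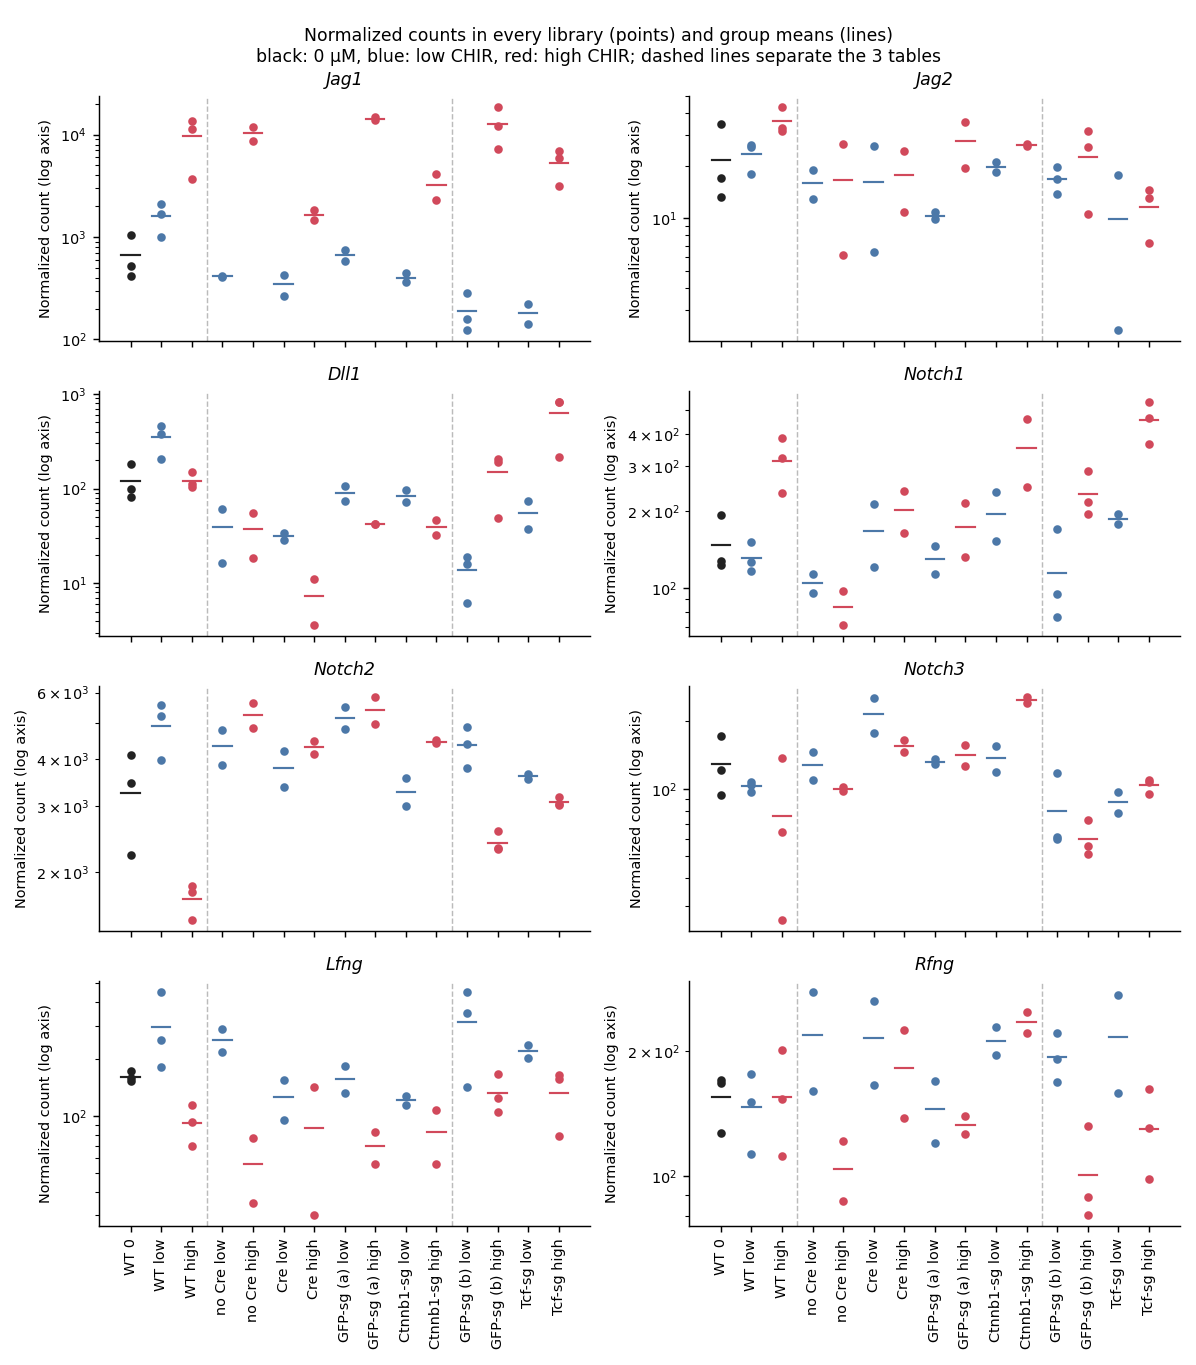
Normalized counts of the 8 tested members (vertical axes, log scale) in each of the 36 libraries (points) with group means (lines), for 15 groups on the horizontal axis; GFP-sg (a) and (b) are the GFP-guide controls of the β-catenin and Tcf/Lef tables, and levels compare only between dashed lines. The high-CHIR points of Jag1 lie above the low-CHIR points of the same table, with 3710 the lowest in wild-type cells, whereas the Dll1 points rise from low to high CHIR without overlap in the Tcf/Lef table only.

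In the other wild-type comparisons fewer members passed. Against low CHIR, 0 µM changed Dll1 alone (1 of 8, 4.97% of all genes). High CHIR against 0 µM changed Jag1, Notch1 and Notch2 (3 of 8, 23.4% of all genes). The call of Dll1 between low and high CHIR was lost without high-CHIR replicate 1 or 3 or low-CHIR replicate 1 or 2 (adjusted p up to 0.115), and its call between 0 µM and low without low replicate 1 or 2 or 0 µM replicate 2 or 3 (up to 0.169). Without low-CHIR replicate 3, Jag1 (adjusted p = 0.055) and Notch1 (0.0528) missed the threshold against low CHIR, and without 0 µM replicate 3 so did Notch1 (0.0536) and Notch2 (0.0613) against 0 µM.

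The transfected control cells repeat the low-to-high comparison in other settings. Jag1 was the member that rose in each of them, with the high-CHIR libraries far above the low ones. In the no-Cre cells it was 412 and 418 in low and 11842 and 8707 in high CHIR (4.61 ± 0.28, limma adjusted p = 7.37e-07). In the GFP-guide cells of the β-catenin table it was 746 and 579 against 14833 and 13848 (4.44 ± 0.28, adjusted p = 8.5e-07). In those of the Tcf/Lef table it was 125, 159 and 286 against 7180, 18709 and 12083 (6.03 ± 0.40, a 65.5-fold change, adjusted p = 2.8e-06). The starting level in low CHIR differed from that of the wild-type table (996 to 2092), but the tables were scaled apart from each other.

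The remaining members did not all follow the wild-type pattern. In the no-Cre cells 2 of 8 members were called (8.05% of all genes): beside Jag1, Lfng was 288 and 218 in low and 35.0 and 76.8 in high CHIR (-2.25 ± 0.60, limma adjusted p = 0.0348). That call of Lfng was kept in only 1 of the 4 fits that left out a library, and was lost without no-Cre high replicate 1 (adjusted p = 0.23), low replicate 1 (0.185) or low replicate 2 (0.0616). In the GFP-guide cells of the β-catenin table only Jag1 was called (1 of 8, 7.51% of all genes). Their Lfng was 132 and 183 against 56.2 and 82.3, again without overlap, but its difference was not called (-1.18 ± 0.60, adjusted p = 0.288). Notch2 stayed at 4797 and 5506 against 4966 and 5854 there (0.07 ± 0.17, adjusted p = 0.853).

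Among the Tcf/Lef controls with GFP guides, 5 of 8 members were called, against 14.9% of all genes. Dll1 was 6.12, 15.8 and 19.0 in low and 48.6, 205 and 190 in high CHIR, so it rose (3.23 ± 0.65, limma adjusted p = 0.00554) where it had fallen in wild-type cells. Its low-CHIR values rest on few reads, with 5 in replicate 1. Notch1 was 170, 94.7 and 76.9 against 288, 217 and 195 (1.09 ± 0.28, adjusted p = 0.0207). Notch2 was 4373, 4876 and 3792 against 2316, 2305 and 2583 (-0.85 ± 0.11, adjusted p = 0.000395). Rfng, the Radical Fringe gene, was 221, 191 and 169 against 132, 89.0 and 80.8 (-0.96 ± 0.28, adjusted p = 0.0352). None of the 5 overlapped between doses, but 4 of the 6 fits without a library lost Rfng (adjusted p up to 0.126, without high replicate 2 or 3 or low replicate 1 or 2) and 3 lost Notch1 (up to 0.0821, without high replicate 1 or 2 or low replicate 2). Those fits did not use the replicate number. Within numbers, Rfng changed by -0.743, -1.10 and -1.05 and Notch1 by 0.755, 1.19 and 1.33 on the log2 scale. High replicate 1 of these controls, lowest in Dll1 and Jag1, also had a blood marker sum of 2818 against 47.8 and 72.8 in the other high-CHIR controls. Without it Dll1 and Jag1 remained called (lowest values over all fits without a library 2.77 and 5.70).

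**Figure D3:**
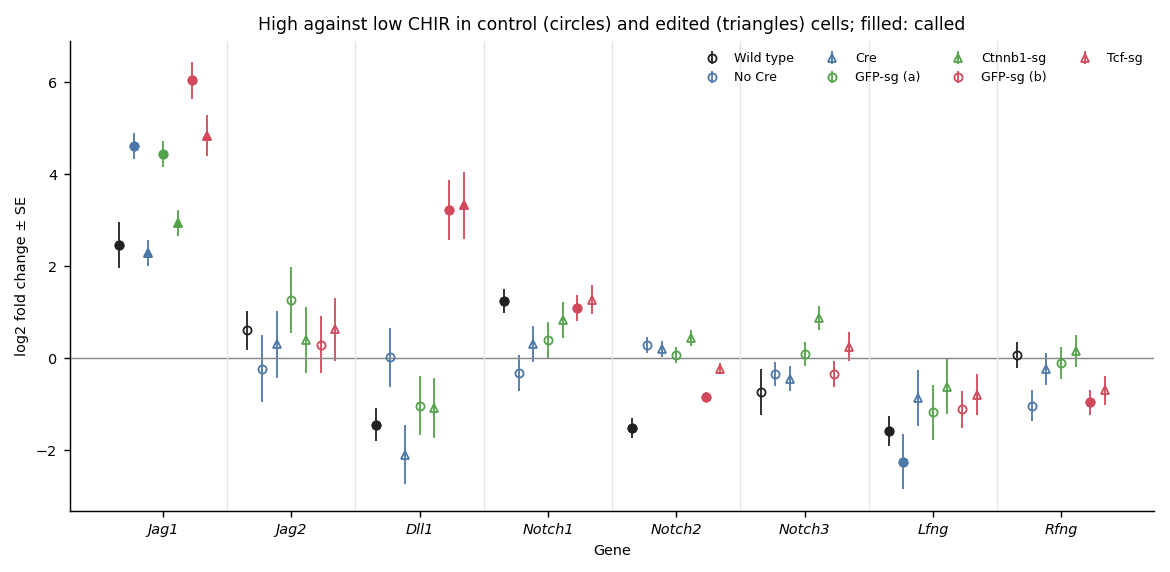
Log2 fold change of high against low CHIR (vertical axis, ± SE from limma) of the 8 tested members (horizontal axis) in control cells (circles) and edited cells (triangles); filled symbols passed the test, GFP-sg (a) and (b) are the controls of the β-catenin and Tcf/Lef tables. Jag1 is the only member with 7 filled symbols, from 2.29 in Cre-treated to 6.03 in GFP-guide cells of the Tcf/Lef table.

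Removing β-catenin asks which of these responses need the Wnt coactivator. In high CHIR 1 of 8 members was called with Cre (8.65% of all genes) and 1 of 8 with Cas9 (5.09% of all genes), and in both it was Jag1. With Cre, Jag1 was 1836 and 1481 against 11842 and 8707 in the no-Cre cells (-2.62 ± 0.28, a 6.15-fold difference, limma adjusted p = 5.97e-05). With Ctnnb1 guides it was 4151 and 2282 against 14833 and 13848 (-2.22 ± 0.28, a 4.65-fold difference, adjusted p = 0.000435). Edited and control libraries did not overlap in either, and both calls held in each of the 4 fits without a library.

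Jag1 did not return to its low-CHIR level. Cre-treated cells had 265 and 426 in low CHIR, and high CHIR still raised Jag1 by 2.29 ± 0.28 (limma adjusted p = 0.00256, 1 of 8 members and 0.292% of all genes called), a call that was lost when only the compared libraries were fitted (adjusted p = 0.247). Cells with Ctnnb1 guides had 362 and 443 in low CHIR, and the rise was 2.94 ± 0.28 (adjusted p = 0.00026, 1 of 8 members and 0.763% of all genes called). The difference between the CHIR response with and without Cre was itself called for Jag1 (-2.32 ± 0.40, adjusted p = 0.0114, 1 of 8 members against 0.995% of all genes). It missed the threshold without no-Cre high replicate 1 (adjusted p = 0.0564), no-Cre low replicate 1 (0.0523) or Cre low replicate 2 (0.0568). For the guides the same difference was not called (-1.50 ± 0.40, adjusted p = 0.217, 0 of 8 members against 0.518% of all genes).

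In low CHIR no member was called after either way of removing β-catenin (0 of 8 with Cre against 0.328% of all genes, and 0 of 8 with guides against 0.0536%). The log2 differences of Jag1 there were -0.30 ± 0.28 with Cre and -0.71 ± 0.28 with guides. Notch1 had a positive difference in each setting, with no call in the fit without replicate numbers. It was 240 and 164 with Cre against 96.7 and 71.6 in high CHIR (1.24 ± 0.39, limma adjusted p = 0.0715) and 460 and 248 with guides against 214 and 132 (1.00 ± 0.39, adjusted p = 0.174).

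Dll1 was not called with either way of removal in the fit without replicate numbers, and the difference between them was not tested. It was 11.1 and 3.64 with Cre against 55.2 and 18.7 in high CHIR (-2.15 ± 0.65, limma adjusted p = 0.0577), and 46.0 and 32.6 with guides against 42.7 and 42.1 (-0.13 ± 0.65, adjusted p = 0.937). The Cre libraries rest on few reads of Dll1, and leaving out no-Cre high replicate 2 or Cre high replicate 1 brought it past the threshold (adjusted p = 0.0352 and 0.0414). Notch3 (0.63 ± 0.27 with Cre, 0.81 ± 0.27 with guides) and Rfng (0.77 ± 0.35 and 0.82 ± 0.35) had positive values in high CHIR that were not called, and Lfng, Notch2 and Jag2 lay within 0.35 of zero on the log2 scale. Stromal markers in high CHIR summed to 7201 to 12567 with Cre against 4996 to 6111 without, and to 12219 to 19344 with Ctnnb1 guides against 4743 to 14130, and their part in the Notch3 values was not tested.

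**Figure D4:**
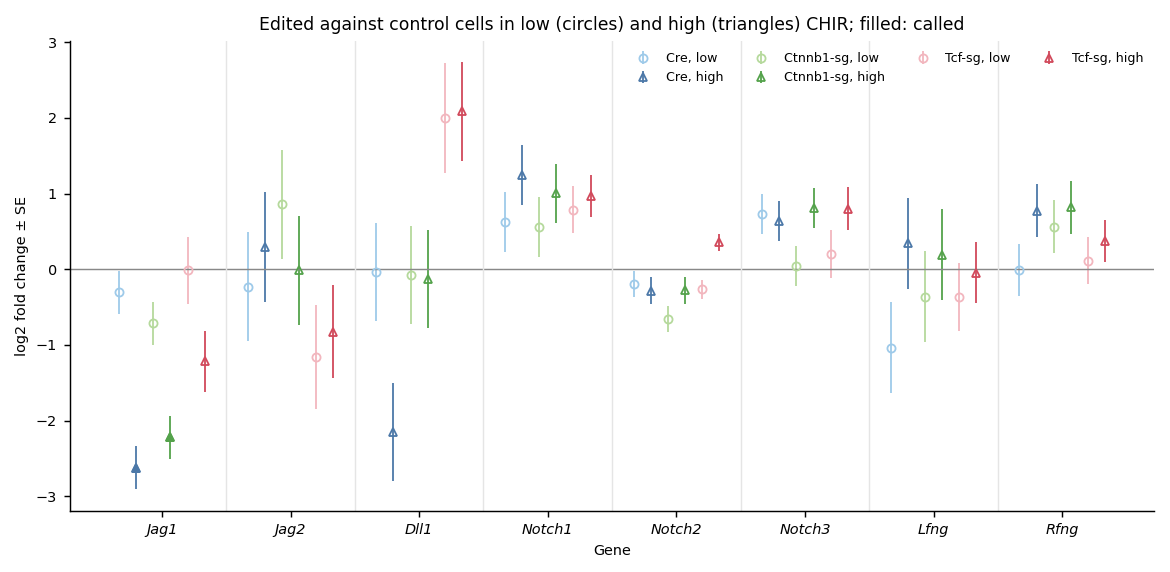
Log2 difference of edited against control cells (vertical axis, ± SE from limma) for the 8 tested members (horizontal axis) after Cre, Ctnnb1 guides or Tcf/Lef guides, in low (circles) and high CHIR (triangles); filled symbols passed the test. The 2 filled symbols are Jag1 after Cre (-2.62) and after Ctnnb1 guides (-2.22) in high CHIR, and the Dll1 values after Tcf/Lef guides lie near 2 in both doses.

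The Tcf/Lef knockout asks the same of the factors through which β-catenin acts on DNA. Fitted without regard to replicate number, no member was called in high CHIR (0 of 8, against 2.54% of all genes). In this table replicate numbers paired the libraries, so the fit with the number as a block stands beside it: there 3 of 8 members were called, against 7.44% of all genes. Jag1 fell, and Dll1 and Notch1 rose.

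Jag1 was 3139, 6952 and 5913 in the knockout and 7180, 18709 and 12083 in the controls in high CHIR, without overlap. Within replicate numbers it was lower by 1.19, 1.43 and 1.03 (dropped by these amounts on the log2 scale). The log2 difference was -1.22 ± 0.40 (limma adjusted p = 0.164) without and -1.22 ± 0.22 (adjusted p = 0.00691) with the block. The knockout still raised Jag1 from low CHIR, where it was 141 and 222, by 4.83 ± 0.45 (adjusted p = 0.000197), and 2 of 8 members were called in that comparison, against 2.54% of all genes. The difference between the CHIR response of knockout and control cells was not called for any member (0 of 8, against 0.126% of all genes; Jag1 -1.20 ± 0.60, adjusted p = 1).

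Dll1 went the other way. In high CHIR it was 218, 827 and 828 in the knockout against 48.6, 205 and 190, so every knockout library lay above every control. The 3 within-number differences were 2.14, 2.0 and 2.12 on the log2 scale, closer to each other than the libraries of either group. The fitted difference was 2.09 ± 0.65 (limma adjusted p = 0.136) without and 2.09 ± 0.25 (adjusted p = 0.00061) with the block. In low CHIR it was 37.2 and 73.3 against 6.12, 15.8 and 19.0, with 1.99 ± 0.73 (adjusted p = 0.904) without and 2.28 ± 0.29 (adjusted p = 0.0178) with the block. The low-CHIR controls rest on few reads of Dll1.

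In low CHIR, then, 0 of 8 members were called without the block (0.0063% of all genes, which is 1 gene) and 1 of 8, Dll1, with it (0.101% of all genes). High CHIR raised Dll1 in the knockout by 3.32 ± 0.73 (limma adjusted p = 0.0366), nearly the value of the controls, though 4 of the 5 fits without a library lost that call (adjusted p up to 0.258 without knockout low replicate 1, and also without low replicate 3 or high replicate 2 or 3). The Dll1 share of the ligand transcripts per kilobase was 13.0% ± 3.84 in the knockout in high CHIR against 1.51% ± 0.60 in the controls (SD, n = 3 each).

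Notch1 was 366, 538 and 465 in the knockout in high CHIR against 288, 217 and 195, without overlap (0.97 ± 0.28, limma adjusted p = 0.108 without and 0.0425 with the block). Notch2 was 3166, 3015 and 3040 against 2316, 2305 and 2583, also without overlap (0.36 ± 0.11, adjusted p = 0.15 and 0.0715), and its size is under the 0.5 required. Notch1 also rose with CHIR within the knockout (1.27 ± 0.31, adjusted p = 0.0568 without and 0.0287 with the block). Notch3 was 110, 94.5 and 107 against 72.5, 55.6 and 51.0 (0.80 ± 0.28, adjusted p = 0.205 and 0.0582). Stromal markers summed to 8129, 3006 and 1218 in those knockout libraries against 4092, 1389 and 1050, and their part in the receptor values was not tested. Lfng (-0.04 ± 0.40) and Rfng (0.37 ± 0.28) overlapped between knockout and control.

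**Figure D5:**
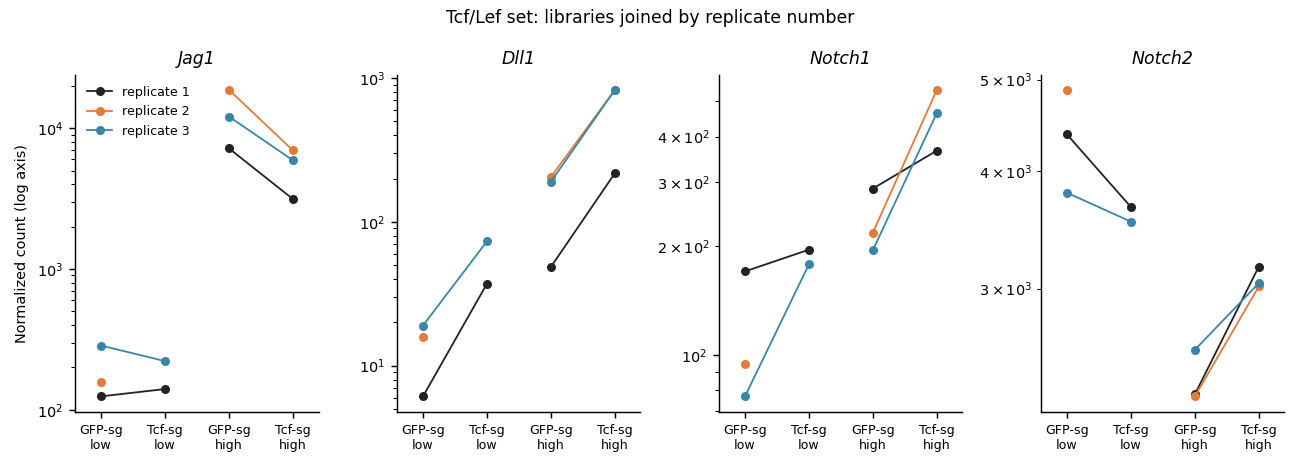
Normalized counts (vertical axes, log scale) of Jag1, Dll1, Notch1 and Notch2 in the Tcf/Lef table for GFP-guide and Tcf/Lef-guide cells in low and high CHIR (horizontal axis), with libraries of one replicate number joined by a line. In high CHIR each line falls for Jag1 (to 3139, 6952 and 5913) and rises for Dll1 (to 218, 827 and 828), Notch1 and Notch2.

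The rest of the pathway was read from a list of 52 further Notch genes, of which 46, 46 and 47 were tested in the wild-type, β-catenin and Tcf/Lef tables. Of the 47 genes tested in at least 1 table, 28 were called in none of the 15 comparisons between doses or edits and 19 (40.4%) in at least 1, against 33.1% of all 18393 genes tested. In wild-type cells from low to high CHIR, Furin, a protease that processes the receptor, rose by 0.96 ± 0.20, and Hes1, a target gene, fell by 2.20 ± 0.23 (limma adjusted p = 0.00024). From low CHIR to 0 µM, Dtx3 rose (0.79 ± 0.14) and Rbpj, the DNA-binding factor of the pathway, fell by 0.72 ± 0.14. High CHIR against 0 µM called 10 of 46, or 21.7%, against 23.4% of all genes, with 5 up (Dtx1 1.79 ± 0.52, Ctbp2 0.97 ± 0.30 and Furin 0.76 ± 0.20 the largest) and 5 down (Hes1 -2.79 ± 0.23, Neurl1b -2.29 ± 0.43 and Bcl6 -1.30 ± 0.41 the largest).

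The target genes Hes1, Hey1 and Heyl, set side by side after their values were seen, moved in different directions in the controls. Hes1 was 790 to 977 in wild-type low and 170 to 216 in high CHIR, and 508 to 986 against 194 to 257 in the Tcf/Lef controls (-1.77 ± 0.23, limma adjusted p = 0.0003). Heyl went from 7.90 to 29.4 up to 541 to 1134 in the same controls (5.44 ± 0.43, adjusted p = 9e-06), and Hey1 from 170 to 223 up to 532 to 1065 (1.94 ± 0.22). In wild-type cells neither Hey1 (-0.87 ± 0.39, adjusted p = 0.2) nor Heyl (0.31 ± 0.67, adjusted p = 0.82) was called. The no-Cre controls raised Heyl (4.24 ± 0.73) and Hey1 (2.60 ± 0.30) and lowered Neurl1b, a ligase that acts on the ligand (-2.58 ± 0.56), Hes1 (-2.17 ± 0.31) and Maml2 (-0.97 ± 0.28). The GFP-guide controls of the β-catenin table raised Heyl (4.42 ± 0.73) and Hey1 (2.15 ± 0.30) and lowered Maml2, a Mastermind coactivator (-1.42 ± 0.28). The Tcf/Lef controls also raised Ctbp2 (0.61 ± 0.17) and lowered Neurl1b (-2.41 ± 0.49) and Rbpjl (-1.92 ± 0.31), and in all 3 rose and 4 fell there (14.9% of 47, and 14.9% of all genes).

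After β-catenin removal in high CHIR, Cre raised 5 of 46 pathway genes and lowered none, a share of 10.9% near the 8.65% of all genes called there. Of these, Neurl1b (2.53 ± 0.56), Hes1 (1.75 ± 0.31, limma adjusted p = 0.0025) and Maml2 (1.68 ± 0.28) had the largest values. Guides called 2 of 46 (4.35%, against 5.09% of all genes): they raised Maml2 (1.16 ± 0.28) and lowered Adam10, the protease of the first cut (-0.71 ± 0.17). High CHIR still raised Hey1 and Heyl in the edited cells, by 3.13 ± 0.30 and 4.17 ± 0.73 with Cre and by 2.85 ± 0.30 and 4.51 ± 0.73 with guides. After Tcf/Lef knockout in high CHIR 5 of 47 rose and none fell (10.6%, against 2.54% of all genes): Rbpjl, a relative of Rbpj (2.16 ± 0.31), Hey1 (1.36 ± 0.22) and Hes1 (1.18 ± 0.23) had the largest values. With the replicate block 7 of 47 rose and 1, Ctbp2, fell, against 7.44% of all genes called with the block. High CHIR raised Hey1 by 3.36 ± 0.25 and Heyl by 7.42 ± 0.48 within the knockout. In low CHIR none of the 46 or 47 pathway genes was called after any edit, nor did any of the 3 differences between CHIR responses call one without the block. With it, 1 of 47, Hey1, was called in the Tcf/Lef set (1.52 ± 0.24, adjusted p = 0.0197). The share of all genes called for that difference with the block is not reported here.

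For the ligand, the receptor and the Fringe gene with the widest range of group means, the genes of most similar pattern were sought over the 15 group means, centred within each table, among 14952 genes tested in all tables. These were Jag1 (range 6.05 on the log2 scale), Notch1 (2.08) and Lfng (2.25). Among the closest to Jag1 were Epha4 and Grb7 (Pearson r = 0.98 each), Igsf1 and Rassf6 (0.97 each). Closest to Notch1 were Ctsz (0.919), Slc48a1 (0.913), Ptgr1 (0.902), Gng11 (0.889) and Atp6v0e2 (0.885). Closest to Lfng were Ubqln4 (0.955), Tril (0.946), Btbd11 (0.945), Xylt1 (0.939) and Pgm2l1 (0.937). Among the members themselves Jag1 and Lfng ran in opposite directions (r = -0.78 over the 15 group means), and Jag1 and Rfng did too (-0.76). The group means share culture sets and CHIR doses, so these values are descriptions only.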

How the data were processed

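RNA-seq libraries (SMARTer Ultra Low kit, paired reads of 150 bases) had been aligned by the authors with STAR to a combined mouse GRCm38 and human assembly and counted per gene with featureCounts, per the study's methods and the submitters' processing notes. The deposited signal values are normalized counts, which the authors made by dividing the read counts per gene by DESeq2 size factors, separately for each of 3 tables. Values were whole multiples of 1 read (100% of values within 0.02), so the reads could be recovered. In 3 of the 36 libraries the value of 1 read was too near 1 for that to be checked, and they were left out of tests on reads. 8 tables of the authors' own comparisons hold fold changes and p-values and were not used, and 50 further columns of per-sample values there were not used either.

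Gene symbols, bounds and exon lengths came from GENCODE vM21, and promoter sequences from RefSeq (GRCm38.p6). For each table, genes with a mean normalized count of at least 10 were fitted over all its libraries with limma 3.58.1 (R 4.3.3) on log2(normalized count + 1), which understates changes of low genes. A gene was called at a Benjamini-Hochberg adjusted p below 0.05 over all genes of the table and a change of at least 0.5 on the log2 scale. The study's methods give a threshold of 1 for most of its comparisons and 0.5 for no against low CHIR; 0.5 was used throughout here and 1 is an alternative. Levels per kilobase are normalized counts over exon length. Alternatives were another pseudocount (0.5 or 5), no filter, TMM rescaling, the compared libraries alone, edgeR 4.0.16 and DESeq2 1.42.0 on recovered reads, other log2 thresholds, the replicate number as a block, and leaving out each library. The fits were tested on simulated data. Comparisons of high against low CHIR within edited cells were added after seeing the data.

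Same-numbered libraries deviated together in the Tcf/Lef table (correlations of deviations from the group means 0.531, 0.341 and 0.63 between doses of the controls, 0.369, 0.249 and 0.365 between knockout and control in high CHIR), so its numbers pair libraries; this came from the data, since the labels do not say what a number marks. The labels call the libraries replicates without saying whether they come from separate animals, so p-values measure the spread between these libraries. All 10 members were to be named. Of the further pathway genes, up to 3 called genes per direction and comparison with the largest change were to be named; results of some genes are not reported here. The members and lists were chosen with earlier results of these data known.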

Additional observations from a re-analysis of the deposited data

Results flagged for a closer look

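The Jag1 response to CHIR differed between cells with and without Cre: the difference of the 2 responses was -2.32 ± 0.40 on the log2 scale (limma adjusted p = 0.0114). Its 4.61 rise in the no-Cre cells compares with 2.29 after Cre.

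Dll1 moved in opposite directions with CHIR in different sets of control cells. From low to high CHIR it changed by -1.45 in wild-type cells and by -1.04 in the GFP-guide controls of the β-catenin table, with every high-CHIR library below every low one, and by 3.23 in the GFP-guide controls of the Tcf/Lef table, with every high-CHIR library above. The difference between these sets was not tested, since the tables were normalized separately, and the change of -1.04 was not called in its own table. The low-CHIR values of the Tcf/Lef controls rest on few reads of Dll1.

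Notch2 was lower in every high-CHIR library in wild-type cells (-1.52) and in the Tcf/Lef controls (-0.85), and higher in every one in the no-Cre controls (0.28, not called). This difference was not tested either. The sets differ in genotype, transfection, knockout period and sort, which cannot be told apart here.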

How the results depend on the processing

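No called member changed direction in any alternative. Of 360 counts of members called under alternatives other than leaving out each library in turn, 343 were within 1.5 times the main count. Of 198 counts that left out 1 library, 175 were. Many main counts were 0 and none was above 3, so this agreement says little. The edgeR and DESeq2 fits lacked the 3 libraries left out of tests on reads. These were Cre high replicate 1, GFP-guide low replicate 1 of the β-catenin table and GFP-guide high replicate 2 of the Tcf/Lef table. The exceptions follow, and their cause was not tested. With the replicate block, 2 members rather than 1 were lower at 0 µM than in low CHIR, 1 was higher and 2 were lower after Cre in high CHIR, 1 was higher after Ctnnb1 guides in high CHIR, 1 was higher after Tcf/Lef guides in low CHIR, and 2 were higher and 1 lower after them in high CHIR; it changed no other count of members past that limit. With only the libraries compared, 2 members were lower at 0 µM, 1 was higher after Ctnnb1 guides and 1 after Tcf/Lef guides in high CHIR, and 0 rose with CHIR after Cre. DESeq2 called 2 lower in the no-Cre controls and 1 higher after Tcf/Lef guides in high CHIR, and edgeR 1 lower in the Tcf/Lef controls. The DESeq2 count after Cre in high CHIR also differed, but only 1 Cre-treated high-CHIR library was left in that fit. A log2 threshold of 1 left 0 lower in wild-type high CHIR against 0 µM and 0 lower in the Tcf/Lef controls.

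Leaving out 1 library gave 0 to 2 members higher and 2 to 3 lower in wild-type high against low CHIR, 0 to 1 lower at 0 µM against low, 1 to 2 higher and 0 to 2 lower in high against 0 µM, 1 to 2 lower after Cre in high CHIR, 0 to 1 lower in the no-Cre controls, 0 to 1 lower for the Cre difference, 2 to 3 higher and 1 to 3 lower in the Tcf/Lef controls, and 1 to 2 higher with CHIR in the Tcf/Lef knockout. Same-numbered libraries correlated weakly in wild-type cells (0.147, 0.0393 and 0.0946 between high and low CHIR). In the β-catenin table the value was 0.463 between Cre-treated and no-Cre cells and 0.297 between Ctnnb1-guide and GFP-guide cells in high CHIR, but 2 libraries per group give a single value for both numbers, so whether the numbers pair those libraries could not be settled. With the block, the members added after Cre in high CHIR were Dll1 (-2.15 ± 0.48, limma adjusted p = 0.0087) and Notch1 (1.24 ± 0.27, adjusted p = 0.00803), and after Ctnnb1 guides Notch1 (1.00 ± 0.27, adjusted p = 0.0372). Over all genes, calls after Tcf/Lef guides in high CHIR were 326 higher and 78 lower as reported, 841 and 340 with the block, and 127 and 29 with edgeR. Depth limits Dll4 and Mfng, which were not tested, and Dll1 in the β-catenin table, where a library held 3 to 106 of its reads. It also limits Dll1 in the low-CHIR controls of the Tcf/Lef table, where replicate 1 held 5 reads.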
